A study of Mus musculus with 18 samples.

Results

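The denervated whisker pad was compared between day 1 and day 3 after the facial nerve was cut, in 6 of the 18 samples of the series, which were taken as the samples labelled as lesioned at those days. There were 3 mice at each day, and the mice of day 3 were not those of day 1. In each mouse the right facial nerve had been transected at its superior marginal and buccal branches under isoflurane through a skin incision closed with glue, while on the left side the skin was opened and reclosed over an intact nerve. A 3-mm punch of skin and muscle was taken from the rostral pad on both sides. Every group thus shared the anesthetic and a skin wound, and side of the face and nerve lesion cannot be told apart. The animals were adult mice of both sexes, and the genotype of those used for sequencing is not given in the sources used here. The sham side of the same 6 mice, 3 at each day, served as background for the passage of time.

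Whisker pad muscle is skeletal muscle whose fibers are each contacted by a motor axon at the neuromuscular junction. When nerve activity is lost, muscle fibers are known to switch genes that activity had kept silent back on, among them myogenic transcription factors, the fetal form of the acetylcholine receptor, and ion channels of embryonic fibers. Histone deacetylase 4 and myogenin are known as links between lost activity and these genes, and some ubiquitin ligases of muscle atrophy are known targets of the same pathway. The question of the comparison was which of these genes were already raised at day 1 and which rose between day 1 and day 3.

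Levels are TPM, a measure of transcript abundance scaled for length and depth, summed over the transcripts of a gene in the authors' normalized values. Changes are day 3 minus day 1 on the scale log2(TPM + 0.5), given with their standard error, for 3 samples against 3, and understate the change of genes of low level. A gene was called where limma gave a p that was under 0.05 after Benjamini-Hochberg adjustment over all genes tested. Nothing in the labels gives the mice a shared batch between days. Estimated depth was 10200000 to 31800000 reads per sample in the 6 denervated samples, with medians of 15900000 at day 1 and 14500000 at day 3. The depth carries counting error only. The p-values set the difference between days against the spread between samples of a day. With 1 denervated punch per mouse, that spread holds differences between mice and between punches alike.

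Between day 1 and day 3, 1404 of 14794 genes tested changed on the denervated side (9.49%), 933 of them higher (6.31%) and 471 lower (3.18%). The 10 largest rises among called genes whose days did not overlap were those of the acetylcholine receptor subunits Chrng, Chrna1, and Chrnd, the fusion gene Mymk, the channel modulator Fgf13, Pln, Prr32, A930003A15Rik, Gm15310, and Gm26897. Of these, Chrng, Mymk, Gm15310, and Gm26897 lay under 1 TPM in every denervated sample of day 1. They met the minimum level only through their day 3 values, so they could be ranked only as rises. On the sham side of the same mice 7 of 14903 genes were called (0.047%), 6 higher and 1 lower, and 1615 genes (10.8%) had an unadjusted p under 0.05, against 4378 (29.6%) on the denervated side. All denervated values of day 3 were above all those of day 1 in 20.7% of genes tested and below them in 15.3%, so that a lack of overlap alone is common here. The denervated count depended on single mice. It was 60 without replicate 2 of day 3, 60 without replicate 3 of day 3, 93 without replicate 3 of day 1, and 454 without replicate 2 of day 1. Called in each of the 6 fits that left out 1 mouse were 46 genes, 44 higher and 2 lower.

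Muscle fiber markers moved with the day. The mean log2 level of 10 muscle fiber markers ran over 8.15, 9.33, and 9.20 in the denervated samples of day 1 and over 9.59, 10.06, and 9.89 in those of day 3. All samples of day 3 thus lay above those of day 1, and replicate 1 of day 1 was lowest. The sham side of that same mouse was low as well, with sham levels of 7.54, 9.54, and 10.07 at day 1 and 9.53, 9.68, and 9.64 at day 3. In summed TPM the markers ranged from 6462 to 14511 at day 1 and from 16406 to 21671 at day 3 on the denervated side. Of these 10 markers, Neb and Actn3 were themselves called, and all 10 were detected in every sample. In such bulk samples, fewer cells of a type and less RNA per cell cannot be told apart.

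For that reason each change was also computed after rescaling every sample to its muscle fiber markers. The median change over all genes was 0.03 as deposited and -0.87 after this rescaling, when 75 genes were higher and 2215 lower. Of the 933 genes called higher, 58 were also called higher after rescaling, and 445 kept a positive change. Scaling the samples to an equal sum of TPM moved the median to -0.10 and gave 404 genes higher and 530 lower. The part of muscle content in the changes of other genes was not tested.

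**Figure D1:**
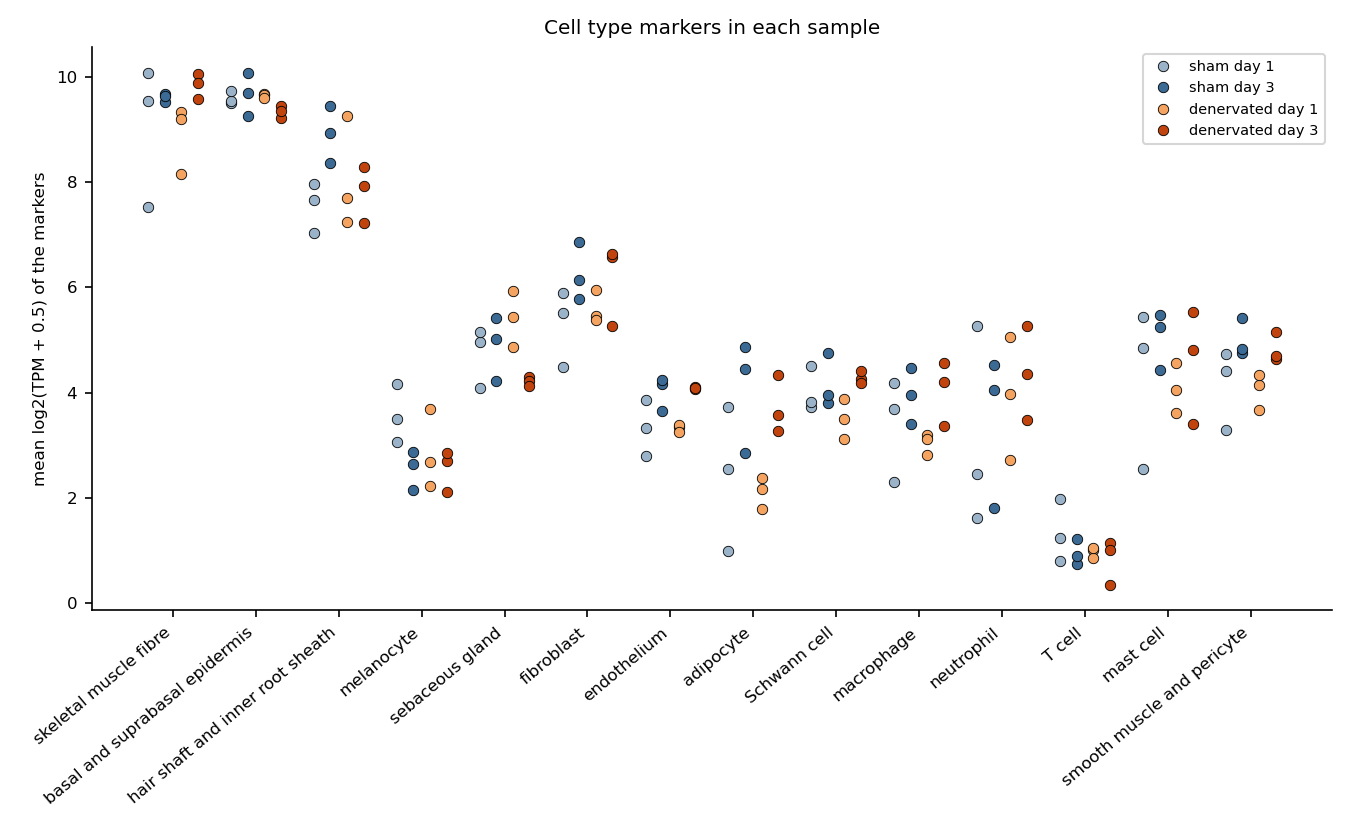
Mean log2(TPM + 0.5) of the markers of 14 cell types (vertical axis) in each sample, with 3 points for each group. Muscle fiber markers of the denervated side stood between 8.15 and 9.33 at day 1 and between 9.59 and 10.06 at day 3, and sebaceous markers of that side were lower at day 3.

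Chosen with earlier results in view, 32 lists of 443 genes were used to describe the denervation program, and 411 of these genes could be tested. Of them 57 were higher and 20 lower at day 3 on the denervated side, against the 6.31% and 3.18% of all genes tested. The lists with the most rises were the myogenic regulators, with 7, and the deacetylase and ion channel lists, with 5 each, and the list with the most falls was that of immediate early genes, with 4. Of the 57, 18 were also called higher after muscle rescaling (Chrng, Chrna1, Chrnd, Myog, Mymk, Mymx, Ncam1, Colq, Gadd45a, Ppp1r27, Traf3ip3, Dusp13, Kcnn3, Fgf13, Ankrd23, Myom3, Actn3, and Rsad2). The other 39 were not. Actn3 is itself 1 of the 10 markers that set that scale. Of the 57, 5 were called whichever mouse was left out (Mef2a, Runx1, Traf3ip3, Kcnn3, and Fgf13). Chrng was called in the 3 fits that left out a mouse of day 1. In those that left out a mouse of day 3 it missed the minimum level and was not tested. Its calls thus cannot be set against those of genes tested in all 6 fits. Myog, Chrna1, and Chrnd were called in 3 of 6, with an adjusted p of up to 0.0773, 0.0773, and 0.0662 in limma. Myod1 and Chrnb1 were called in 1 of 6, with up to 0.106 and 0.133.

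**Figure D2:**
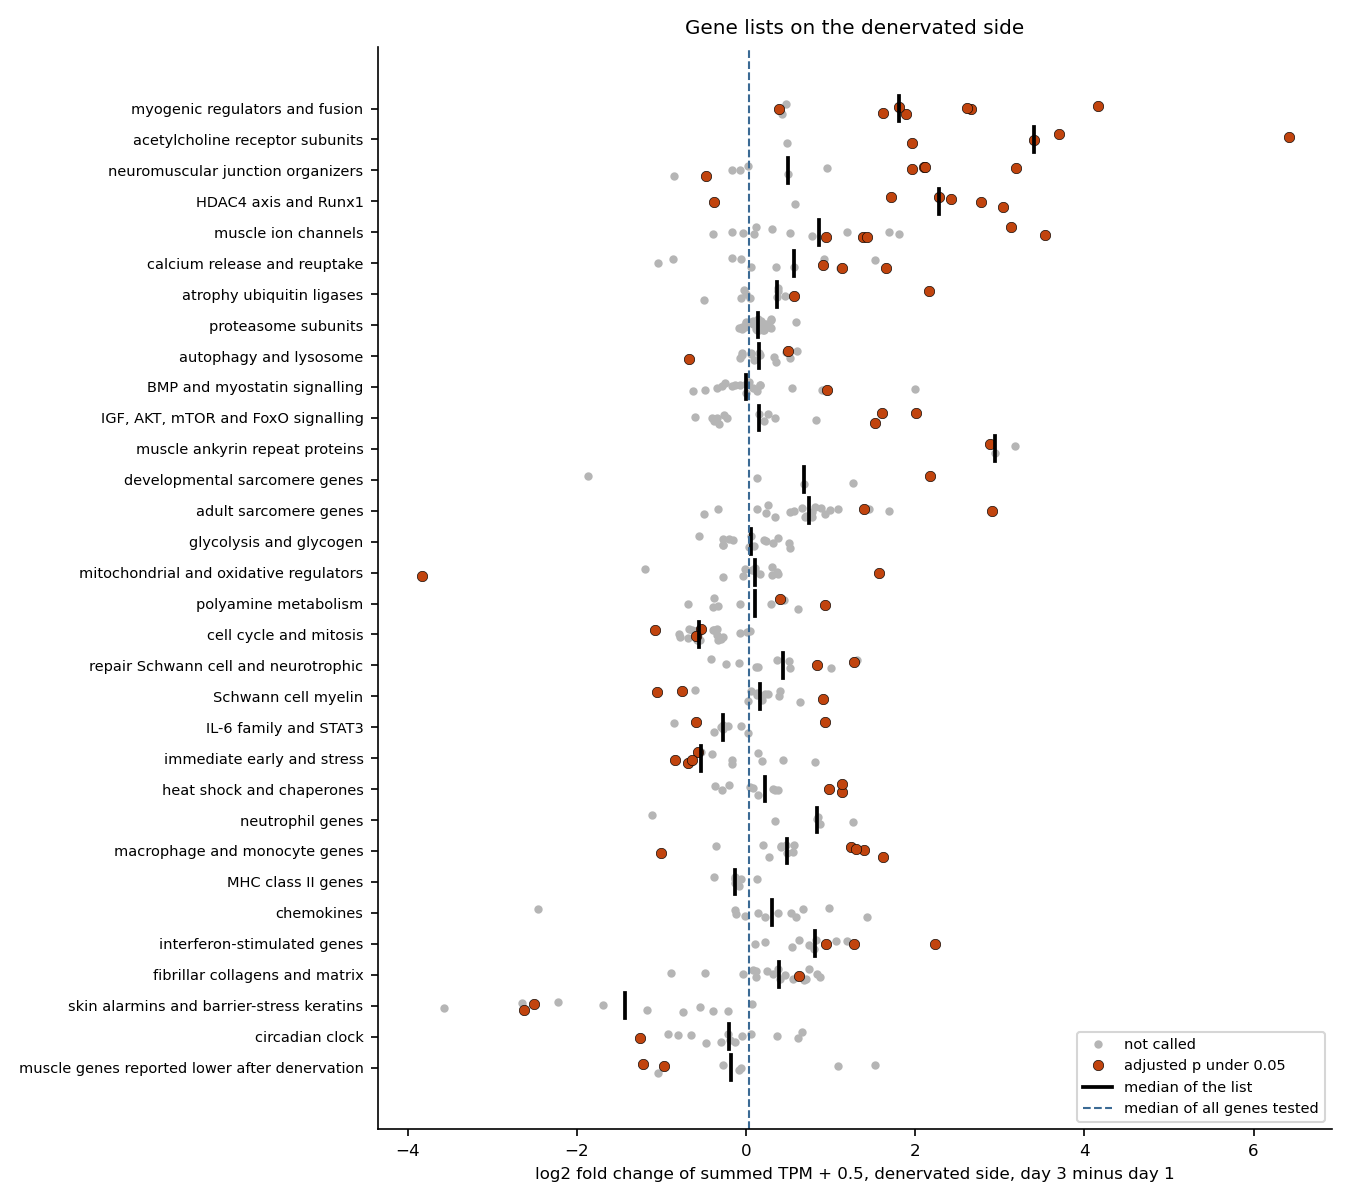
Change of each tested gene of 32 lists on the denervated side, as log2 fold change of summed TPM + 0.5, day 3 minus day 1 (horizontal axis). Orange points are called genes, gray points are not called, black bars are list medians, and the dashed line is the median of all genes tested, 0.03. The acetylcholine receptor subunits had a median of 3.40 and the skin alarmins of -1.43.

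The muscle acetylcholine receptor is a channel of 5 subunits, and the fetal form carries the γ subunit, Chrng, where the adult form carries the ε subunit, Chrne. Of the 5 subunit genes 4 rose, with a list median of 3.40 (1.13 on the sham side). Chrng was the gene with the largest rise among all those the naming rule selected, and it met the minimum level only through its day 3 values. It stood at 0.0123, 0.0259, and 0.0276 TPM in the denervated samples of day 1 and at 23, 61.8, and 59.6 TPM in those of day 3 (6.41 ± 0.38, adjusted p = 0.00322). At day 1 no denervated value was above the sham values of that day, 0.0753, 0.0549, and 0.0276 TPM. Sham values of day 3 were 0.274, 0.449, and 0.337 TPM, above those of day 1 but far below the denervated samples. With a pseudocount of 0.1 the change of Chrng was 8.50 and with 1 it was 5.46, since its day 1 level lies near 0.

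The other receptor subunits followed the same order with smaller changes. Chrna1, the α subunit that binds acetylcholine, had 1.73, 8.19, and 7.74 TPM at day 1 and 50.4, 75.8, and 89.7 TPM at day 3 (3.70 ± 0.54, adjusted p = 0.018). Chrnd, the δ subunit, had 1.93, 7.63, and 5.64 TPM at day 1 and 45.1, 47.7, and 64.4 TPM at day 3 (3.40 ± 0.44, adjusted p = 0.0139). The day 1 values of Chrnd, unlike those of Chrna1, were all above the sham values of that day, 0.43, 1.51, and 1.24 TPM. Chrnb1, the β subunit, had 12.9, 37.6, and 35.6 TPM at day 1 and 81.2, 127, and 103 TPM at day 3 (1.96 ± 0.42, adjusted p = 0.038). In all 4 genes replicate 1 of day 1, the mouse with the lowest muscle markers, was also the lowest. Chrne had 8.53, 19.1, and 20.6 TPM at day 1 and 13.5, 19.8, and 35.5 TPM at day 3, values that overlap (0.49 ± 0.44, adjusted p = 0.508). After muscle rescaling Chrng, Chrna1, and Chrnd were called, and Chrnb1 was not (1.02, adjusted p = 0.0826).

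Chrnd and Chrng are neighbors on 1 strand of mouse chromosome 1 in build GRCm38, at chr1:87190607-87200070 and chr1:87204657-87212694. Myogenic factors such as myogenin are known to bind E-boxes, written CANNTG, and the start regions of the receptor genes and of Myog itself are shown because Myog and 4 of the 5 receptor genes were called higher. Chrne, the adult subunit that was not called, is shown for comparison. Each is 300 bases from RefSeq on GRCm38.p6, from 250 bases before the gene's start to 50 after it, on the gene's strand and 5′ to 3′, with capitals marking every CANNTG. The start of Chrng in RefSeq lies 1154 bases downstream of the start in GENCODE M21, from which the gene positions above were taken, while for the other 4 genes printed the starts differ by 0 to 22 bases. The motif reads as CANNTG on both strands. Of 6 genes looked up 5 were in the table, and Chrnd was not.
Chrng, chr1:87205561-87205860, plus strand: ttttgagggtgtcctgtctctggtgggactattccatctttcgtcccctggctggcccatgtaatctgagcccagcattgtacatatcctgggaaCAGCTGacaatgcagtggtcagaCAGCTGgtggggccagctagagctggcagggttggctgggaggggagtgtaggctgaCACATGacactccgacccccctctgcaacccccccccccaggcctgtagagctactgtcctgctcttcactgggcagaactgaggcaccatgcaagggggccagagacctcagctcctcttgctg
Chrna1, chr2:73580289-73580588, minus strand: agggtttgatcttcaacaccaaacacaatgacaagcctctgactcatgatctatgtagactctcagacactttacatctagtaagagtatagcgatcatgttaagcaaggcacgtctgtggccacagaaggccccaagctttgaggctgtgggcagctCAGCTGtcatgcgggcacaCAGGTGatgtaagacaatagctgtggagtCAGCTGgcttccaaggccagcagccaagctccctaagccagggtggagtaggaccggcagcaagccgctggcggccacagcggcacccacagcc
Chrnb1, chr11:69795888-69796187, minus strand: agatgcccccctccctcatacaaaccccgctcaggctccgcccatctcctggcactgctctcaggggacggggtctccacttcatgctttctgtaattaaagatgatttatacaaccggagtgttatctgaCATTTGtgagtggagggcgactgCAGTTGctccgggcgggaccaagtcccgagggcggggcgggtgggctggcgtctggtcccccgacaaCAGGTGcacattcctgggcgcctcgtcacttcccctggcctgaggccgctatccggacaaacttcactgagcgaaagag
Chrne, chr11:70619145-70619444, minus strand: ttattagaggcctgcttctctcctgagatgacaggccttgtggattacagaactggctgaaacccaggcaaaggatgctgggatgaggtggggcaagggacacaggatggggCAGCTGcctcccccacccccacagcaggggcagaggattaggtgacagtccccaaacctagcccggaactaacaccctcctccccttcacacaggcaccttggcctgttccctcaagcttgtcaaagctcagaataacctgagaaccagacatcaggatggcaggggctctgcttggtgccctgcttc
Myog, chr1:134289754-134290053, plus strand: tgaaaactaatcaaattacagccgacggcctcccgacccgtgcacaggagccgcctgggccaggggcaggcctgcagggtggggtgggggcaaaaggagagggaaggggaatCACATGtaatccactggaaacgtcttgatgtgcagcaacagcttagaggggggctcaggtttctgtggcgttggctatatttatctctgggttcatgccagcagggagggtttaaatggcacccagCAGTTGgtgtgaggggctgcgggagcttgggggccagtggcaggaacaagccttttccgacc

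Of these start regions, those of Chrng, Chrna1, and Chrnb1 held 3 matches each, that of Myog 2, and that of Chrne 1. Matches spelled CAGCTG numbered 2 in Chrng, 2 in Chrna1, 1 in Chrne, and 0 in Chrnb1 and Myog. In Chrng the matches began at positions -155, -132, and -75, counted from 0 at the start, and in Chrna1 at -92, -73, and -44. Among 32851 mouse start regions of the same length, 72.3% held CANNTG, 17.6% held 3 or more, 16.3% held CAGCTG, and 1.9% held 2 or more CAGCTG. Such a match is a run of letters and says nothing of binding in these samples.

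The myogenic regulators act above the receptor genes, and here 7 of 9 tested were called, all higher, with a list median of 1.81 (0.61 on the sham side). Myog encodes myogenin, a basic helix-loop-helix factor that drives myoblast differentiation. It stood at 16.6, 51.5, and 26.4 TPM at day 1 and at 178, 199.8, and 166 TPM at day 3 (2.65 ± 0.38, adjusted p = 0.0165). All denervated values of day 1 were already above the sham values of that day, 0.49, 2.14, and 1.51 TPM, and the day 3 values were higher still. Sham values of Myog also stood higher at day 3, at 7.14, 3.38, and 3.45 TPM, a change of 1.49 ± 0.45 that was not called (adjusted p = 0.355). Myod1, the related factor MyoD that commits cells to the muscle lineage, had 14.7, 20.1, and 24.4 TPM at day 1 and 42.8, 117, and 77.7 TPM at day 3 (1.89 ± 0.38, adjusted p = 0.0328), and its day 1 values were also above the sham range. Both factors thus stood above sham at day 1 and rose by day 3. Over all genes tested, the denervated values of day 1 lay wholly above the sham values of that day in 5.68% and wholly below them in 3.87%.

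Mymk and Mymx, which encode myomaker and myomixer, the membrane proteins that let myoblasts fuse, were near 0 at day 1. Both met the minimum level only through their day 3 values. Mymk had 0.0609, 0.255, and 0.205 TPM at day 1 and 5.71, 9.74, and 26.6 TPM at day 3 (4.16 ± 0.52, adjusted p = 0.0134). Sham values of Mymk were at most 0.204 TPM at both days, and its denervated day 1 values overlapped them. Mymx had 0.197, 0.309, and 0.44 TPM at day 1 and 4.68, 2.27, and 7.93 TPM at day 3 (2.61 ± 0.41, adjusted p = 0.0206). The MEF2 factors, which work beside the myogenic factors and are held down by class II histone deacetylases, rose as well. Mef2a had 22.2, 21.6, and 19.4 TPM at day 1 and 53.7, 74.9, and 71.3 TPM at day 3 (1.62 ± 0.15, adjusted p = 0.00742), and its day 1 values were below all sham values of that day. Mef2c rose by 1.81 and Mef2d by 0.39, and the change of Mef2d turned to -0.56 after muscle rescaling. Myf6, the myogenic factor of mature fibers, had 40.7, 198, and 137 TPM at day 1 and 142, 121, and 155 TPM at day 3, with overlap and no call (0.42 ± 0.55, adjusted p = 0.65). Pax7, the satellite cell factor, and Myf5 were not among the called genes. After muscle rescaling Myog, Mymk, and Mymx were called.

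**Figure D3:**
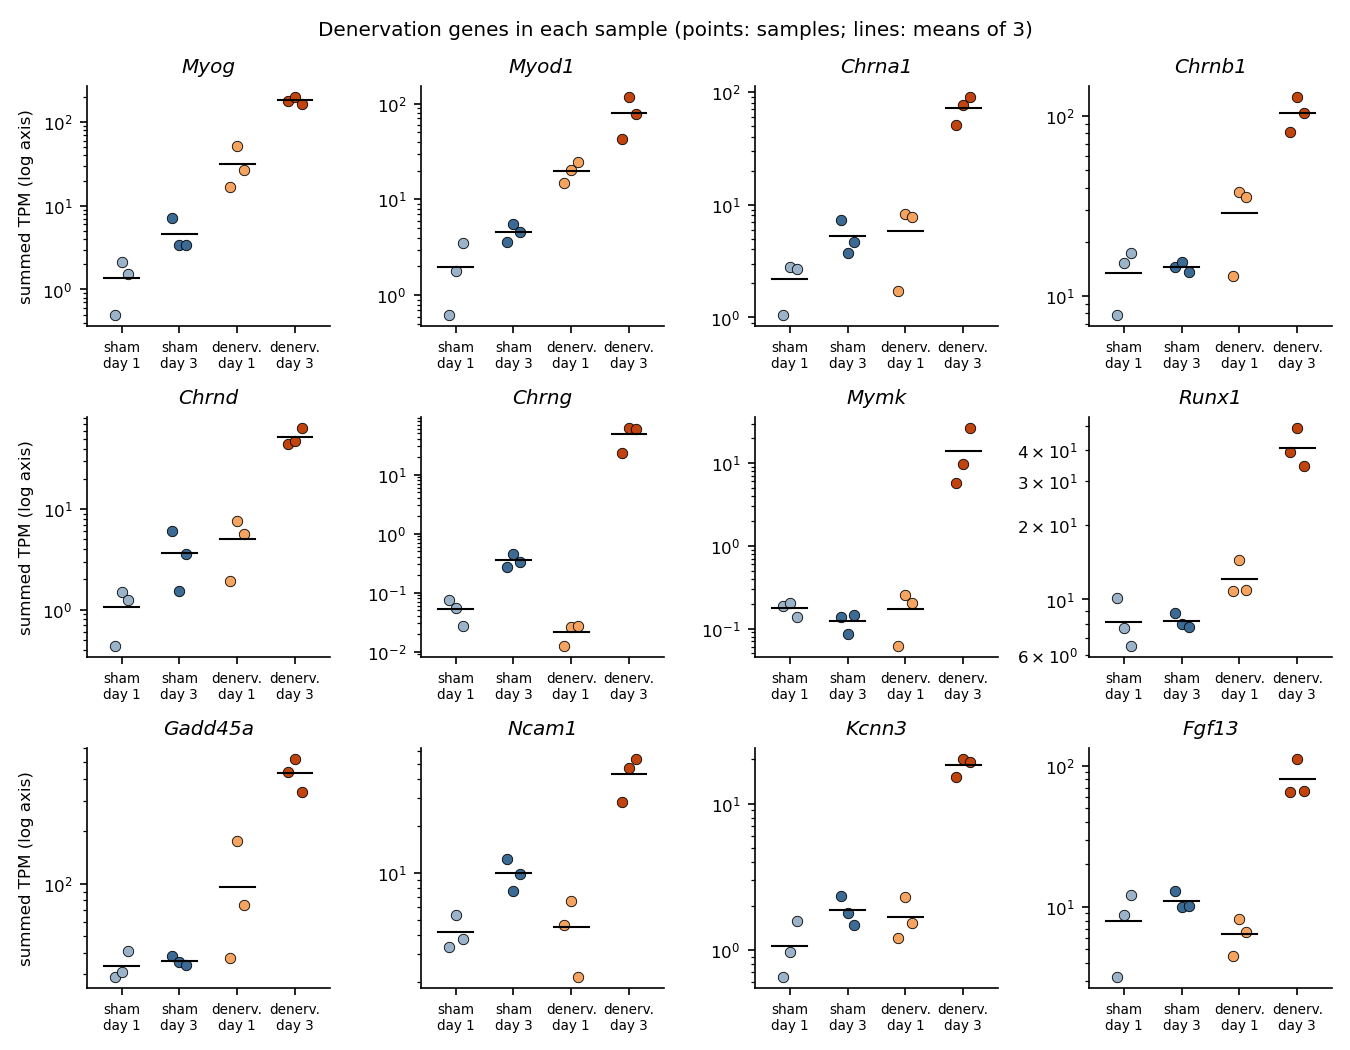
Summed TPM (log axis) of 12 genes in each sample of the sham and denervated sides at days 1 and 3, where points are samples and lines are means of 3. In each gene the 3 denervated samples of day 3 were above all other samples shown, while Chrng at day 1 was no higher on the denervated side than on the sham side.

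Of the deacetylase axis and its associated genes, 5 of 7 tested rose and 1 fell, with a median of 2.28 (0.06 on the sham side). Runx1, a transcription factor known to limit wasting in denervated muscle, had 10.8, 14.4, and 10.9 TPM at day 1 and 39, 48.9, and 34.3 TPM at day 3 (1.71 ± 0.17, adjusted p = 0.00923), with no overlap. Its sham values were 10.2, 7.65, and 6.48 TPM at day 1 and 8.8, 8.0, and 7.77 TPM at day 3, so that denervated samples were slightly above sham at day 1 and far above it at day 3. Gadd45a, a stress-induced chromatin regulator known as a target of histone deacetylase 4, had 37.2, 176, and 75 TPM at day 1 and 441, 523, and 336 TPM at day 3 (2.43 ± 0.53, adjusted p = 0.0408). Its day 1 values spread widely, with replicate 1 inside the sham range of that day. Hdac4, the deacetylase itself, had 11.9, 14.4, and 15.4 TPM at day 1 and 23.8, 22.2, and 17.2 TPM at day 3 and did not pass (0.58 ± 0.16, adjusted p = 0.0692). All its day 1 values were above the sham values, 9.09, 8.52, and 8.02 TPM. Hdac5, a related deacetylase, fell from 76.7, 75.4, and 74.6 TPM to 54.2, 58.7, and 62 TPM (-0.37 ± 0.09, adjusted p = 0.0481). Dach2, a repressor of Myog, stayed under the minimum level in both groups.

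Of the remaining genes of this group, Ppp1r27, a protein phosphatase 1 regulatory subunit, had 5.45, 34.6, and 18.1 TPM at day 1 and 219, 118, and 81.6 TPM at day 3 (3.04 ± 0.68, adjusted p = 0.0423). At day 1 it already exceeded the sham range, whose values were 0.212, 0.809, and 2.1 TPM. Traf3ip3 had 1.84, 2.97, and 2.95 TPM at day 1 and 16.5, 23.2, and 21.8 TPM at day 3 (2.78 ± 0.21, adjusted p = 0.00669), and its day 1 values overlapped those of sham. Dusp13, a dual-specificity phosphatase gene, rose from 25.6, 98.7, and 71.1 TPM to 259, 326, and 249.9 TPM (2.28 ± 0.47, adjusted p = 0.0361). After muscle rescaling Gadd45a, Ppp1r27, Traf3ip3, and Dusp13 were called higher, and Runx1 was not (0.78, adjusted p = 0.163).

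At the synapse, 4 of 11 organizers rose and 1 fell, with a median of 0.50 (0.07 on the sham side). Ncam1, the neural cell adhesion molecule known to spread over denervated fibers, had 4.65, 6.63, and 2.13 TPM at day 1 and 28.3, 46.9, and 53.7 TPM at day 3 (3.19 ± 0.41, adjusted p = 0.0139). Its day 1 values overlapped the sham values, and the day 3 values lay above every sham sample. Colq, the collagen tail that anchors acetylcholinesterase, had 0.231, 0.768, and 0.692 TPM at day 1 and 3.47, 3.65, and 5.0 TPM at day 3 (2.12 ± 0.27, adjusted p = 0.0139), and its day 1 values were below the whole sham range of 1.2, 3.08, and 2.56 TPM. Rapsn, which clusters the receptor, rose from 1.23, 2.2, and 3.29 TPM to 7.29, 12.3, and 13.5 TPM (adjusted p = 0.0224), and Dok7, an activator of the receptor kinase MuSK, rose by 1.96 ± 0.25. Musk itself had 1.1, 4.31, and 3.12 TPM at day 1 and 5.23, 6.28, and 4.78 TPM at day 3 and was not called (0.96 ± 0.40, adjusted p = 0.168). Erbb3, a neuregulin receptor, fell by 0.48 (adjusted p = 0.0469) and stood at 22.3, 21.5, and 19.7 TPM at day 1 and 16.7, 14.7, and 18.5 TPM at day 3 on the sham side. After muscle rescaling Ncam1 and Colq were called higher.

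Among muscle ion channels 5 of 16 tested rose and 0 fell, with a median of 0.86 (0.62 on the sham side). At day 3 the denervated values lay wholly above sham in 5 of the 16 and wholly below it in 6. Over all 14794 genes tested these counts were 1757 and 1433. Kcnn3 encodes the small-conductance calcium-activated potassium channel SK3, known to appear in denervated muscle. It had 1.21, 2.28, and 1.53 TPM at day 1 and 15.2, 20.2, and 19.4 TPM at day 3 (3.13 ± 0.21, adjusted p = 0.00421), and the denervated and sham values overlapped at day 1. Fgf13, an intracellular modulator of sodium channels, had 4.48, 8.27, and 6.67 TPM at day 1 and 64.9, 112, and 66.3 TPM at day 3 (3.54 ± 0.28, adjusted p = 0.00684), also from within the sham range at day 1. Both remained called after muscle rescaling (2.29 and 2.62). Kcnj11, a subunit of the ATP-sensitive potassium channel, rose by 1.43 ± 0.15, and Kcnma1, of the large-conductance potassium channel, rose by 0.95 ± 0.22, and neither was called higher after muscle rescaling.

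Of the 57 list genes called higher, 5 had denervated day 1 values that were all above sham (Myog, Myod1, Chrnd, Runx1, and Ppp1r27), 47 overlapped sham at day 1, and 5 were all below it (Mef2a, Chrng, Colq, Kcnma1, and Esrrg). These are 8.77%, 82.5%, and 8.77% of the list genes called higher, against 2.89%, 88.7%, and 8.36% of all 933 genes called higher, so that the share below sham was near that of all such genes. As the day 1 samples also enter the comparison between days, these counts are a description.

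Of 11 ubiquitin ligases of atrophy 2 were called, both higher, with a median of 0.37 (0.06 on the sham side), and 8 of 11 had a positive change. Of 31 proteasome subunits, which degrade the proteins such ligases tag, 0 were called by limma and 6 had an unadjusted p under 0.05. Their changes were small, with a median of 0.15 (-0.0099 on the sham side), and 27 of 31 were positive (87.1%, against 53.3% of all genes tested) where 14 of 31 were on the sham side. At day 3 the denervated values lay wholly above sham in 19 of the 31 (61.3%, against 11.9% of all genes tested). After muscle rescaling 0 of the 31 had a positive change, with a median of -0.81. Over all genes tested 842 of 14794 had a positive change after that rescaling, with a median of -0.87. Fbxo32, or atrogin-1, had 5.97, 16, and 13.6 TPM at day 1 and 36.2, 9.29, and 8.64 TPM at day 3 (0.38 ± 0.61, adjusted p = 0.722). Trim63, or MuRF1, had 11.4, 100.3, and 54.2 TPM at day 1 and 128, 37.4, and 34.8 TPM at day 3 (0.46 ± 0.87, adjusted p = 0.76). In both genes replicate 1 of day 3 was the highest denervated sample and the other 2 mice of that day were within the range of day 1. The sham side of replicate 1 was also the highest of its day, with sham values of 17.7, 5.11, and 6.55 TPM for Fbxo32 and 68.2, 22, and 21.3 TPM for Trim63. Fbxo40, a ligase for insulin receptor substrate 1, rose from 2.99, 6.07, and 4.13 TPM to 11.8, 24.9, and 29.9 TPM (2.16 ± 0.39, adjusted p = 0.0265), and Nedd4 rose by 0.57 ± 0.10. After muscle rescaling Fbxo40 was no longer called (1.26, adjusted p = 0.0532) and the change of Nedd4 turned to -0.38.

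Of 15 autophagy and lysosome genes, Ulk1, a kinase that starts autophagy, fell from 48.2, 41.9, and 48.7 TPM to 29.5, 29.8, and 26.9 TPM (-0.68 ± 0.10, adjusted p = 0.018), and Lamp1, a lysosome membrane protein, rose by 0.50 ± 0.09 and turned to -0.45 after muscle rescaling. In insulin-like growth factor signaling 3 of 15 genes rose. Akt2, the kinase of insulin signaling, had 53.8, 65.1, and 65.3 TPM at day 1 and 141, 209.9, and 225 TPM at day 3 (1.61 ± 0.20, adjusted p = 0.0128), while Igf1, the growth factor, rose by 1.53 ± 0.20. Igfbp5, its binding protein, had 50.2, 60.1, and 60.0 TPM at day 1 and 122, 302, and 324 TPM at day 3 (2.01 ± 0.37, adjusted p = 0.0284). Its sham values ran in the same direction, at 34.4, 54.6, and 71.5 TPM and 98.1, 198, and 157 TPM, a change of 1.49 that was not called. None of these 3 was called after muscle rescaling. In bone morphogenetic protein signaling 1 of 19 genes was called, the receptor Bmpr1b (0.96 ± 0.20), which was not called after muscle rescaling (0.30). Gdf5, a ligand of that pathway known to counter atrophy after denervation, had 2.09, 7.79, and 3.71 TPM at day 1 and 14.4, 31.1, and 11.8 TPM at day 3 and did not pass (2.00 ± 0.51, adjusted p = 0.0583). Its day 1 values were all above the sham values, 0.274, 0.133, and 0 TPM.

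Among sarcomere genes, few passed while most had a positive change. Of 22 adult sarcomere genes tested 2 rose, with a median of 0.75 (0.44 on the sham side). An unadjusted p under 0.05 in limma was found for 8. The change was positive in 20 of the 22, and in 20 of 22 on the sham side as well. At day 3 the denervated values lay wholly above sham in 3 of the 22 and wholly below it in 5. Actn3, α-actinin of fast fibers, had 36.3, 145, and 109 TPM at day 1 and 402, 1019, and 598 TPM at day 3 (2.91 ± 0.57, adjusted p = 0.0321), and sham values at day 3 were 61.2, 141, and 124 TPM. Myom3, an M-band protein, rose from 24.8, 39.4, and 40.7 TPM to 111, 185, and 184 TPM (adjusted p = 0.0136). Ankrd23, a titin-binding ankyrin repeat protein, rose from 48.5, 111, and 106 TPM to 566, 827, and 497 TPM (2.88 ± 0.36, adjusted p = 0.0134). These 3 were also called higher after muscle rescaling, which lowered the median of the adult sarcomere list to -0.18. Ankrd1, a related gene, spread too far at day 1 to pass, with 4.02, 145, and 8.79 TPM at day 1 and 138, 217, and 149 TPM at day 3 (3.17 ± 1.21, adjusted p = 0.142). Of embryonic myosins, Myh3 and Myh8 were under the minimum level, and Myh8 reached 0.371, 6.11, and 0.689 TPM at day 3. Actc1, cardiac actin, was lower at day 3 in every sample, at 35.7, 66.1, and 37.6 TPM against 4.51, 18.1, and 19.8 TPM, without passing (-1.87 ± 0.56, adjusted p = 0.0848).

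Calcium handling held 3 rises among 13 genes (median 0.56, and 0.67 on the sham side). At day 3 the denervated values lay wholly above sham in 0 of the 13 and wholly below it in 3. Stac3, which couples excitation to contraction, rose by 1.66 ± 0.27, Jph1, a junctional membrane protein, by 1.13 ± 0.21, and Casq2, a calcium-binding protein of the sarcoplasmic reticulum, by 0.91 ± 0.18. After muscle rescaling these 3 were not called, at 0.71, 0.22, and -0.00. Pln, or phospholamban, an inhibitor of the calcium pump, was among the 10 largest rises, with 1.1, 1.64, and 1.71 TPM at day 1 and 8.52, 37.6, and 28.3 TPM at day 3 (3.45 ± 0.52, adjusted p = 0.0191). In metabolism, Esrrg, an estrogen-related receptor of oxidative fibers, rose by 1.57 ± 0.27 (0.81 and not called after muscle rescaling). Of 15 glycolysis and glycogen genes 0 were called by limma, with 1 at an unadjusted p under 0.05. At day 3 the denervated values of these 15 lay wholly above sham in 2 and wholly below it in 8. Ucp3, a mitochondrial carrier of muscle, had the largest fall that the rule selected. It had 47.3, 78.3, and 81.3 TPM at day 1 and 21.1, 1.72, and 1.72 TPM at day 3 (-3.83 ± 0.88, adjusted p = 0.0463), with replicate 1 of day 3 well above the other mice of that day. The sham side had 5.56, 29.9, and 37.1 TPM at day 1 and 27.7, 4.82, and 3.38 TPM at day 3, with the same mouse highest at day 3. Riiad1 and Klhl33, from a list of muscle genes reported as lower after denervation in these samples, fell by 1.21 and by 0.97, and that list is no independent evidence of its direction. In polyamine metabolism Sms, spermine synthase, rose by 0.94 ± 0.20, and Oaz2, an antizyme, rose by 0.41 ± 0.09 but turned to -0.55 after muscle rescaling.

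**Figure D4:**
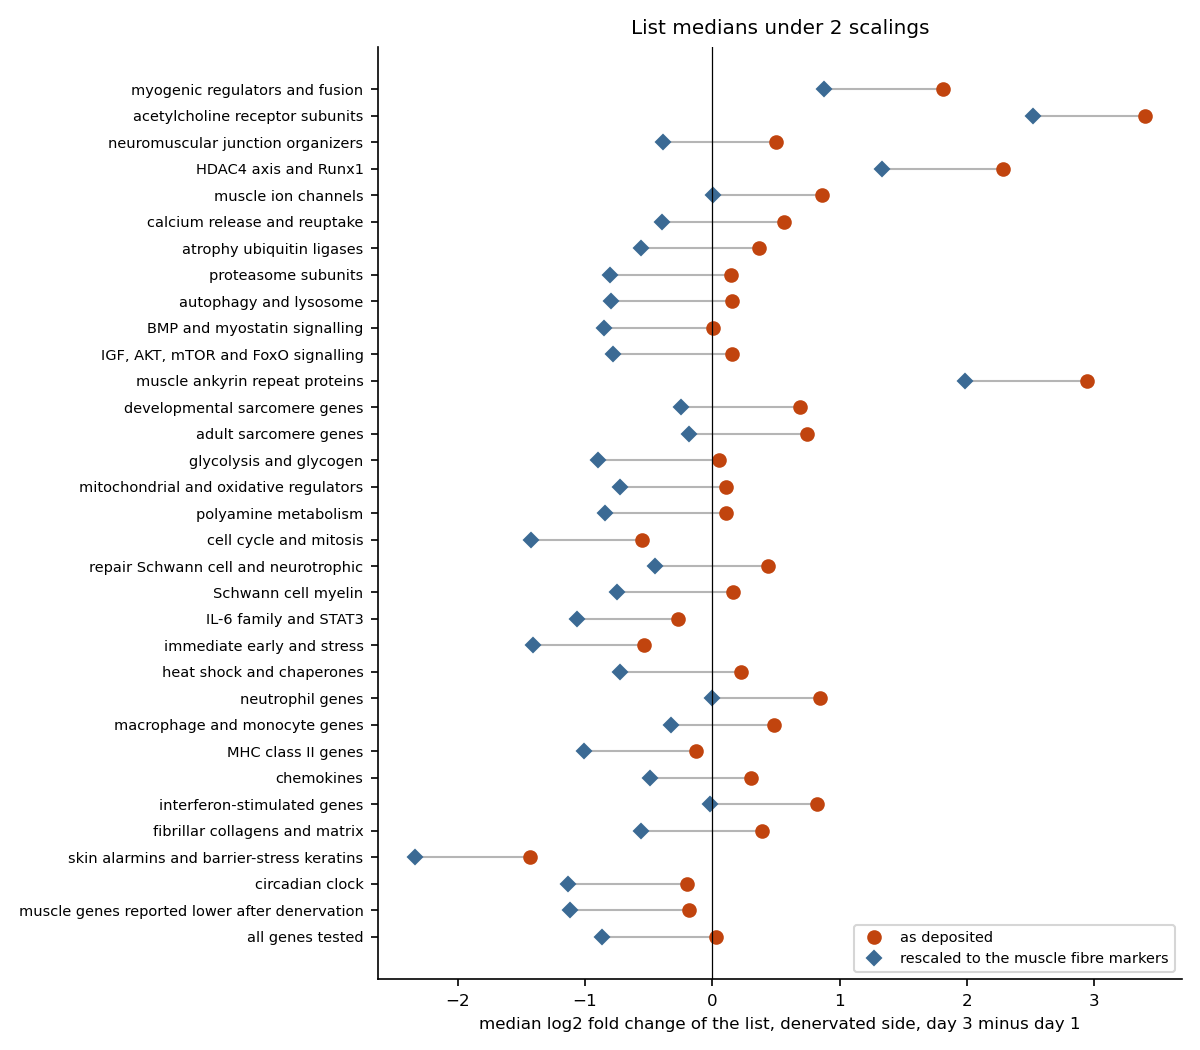
Median log2 fold change of each list on the denervated side, day 3 minus day 1 (horizontal axis), as deposited (circles) and after rescaling each sample to its muscle fiber markers (diamonds), with all genes tested in the last row. The median of all genes moved from 0.03 to -0.87, that of the acetylcholine receptor list from 3.40 to 2.52, and that of the myogenic list from 1.81 to 0.88.

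In the nerve and its glia, Gdnf, a survival factor for motor neurons, rose from 1.67, 2.4, and 1.46 TPM to 6.09, 5.94, and 3.65 TPM (1.28 ± 0.24, adjusted p = 0.0303). Its receptor gene Gfra1 rose by 0.84 ± 0.18. After muscle rescaling neither was called, at 0.46 and -0.064. These were 2 of 12 tested genes of repair Schwann cells (median 0.44). Ngfr, the p75 neurotrophin receptor of Schwann cells without axons, had 8.36, 4.5, and 3.5 TPM at day 1 and 9.5, 11.8, and 11 TPM at day 3 and did not pass (1.00 ± 0.29, adjusted p = 0.0788). Of 14 myelin genes 1 rose and 2 fell, with a median of 0.16 (0.05 on the sham side). A positive change was seen in 11 of the 14, and in 9 on the sham side. The 2 that fell were Egr2, a transcription factor of myelinating cells, and Fa2h. Fa2h, which makes hydroxylated lipids in myelin and is also expressed in sebaceous glands, had 416, 564, and 497 TPM at day 1 and 186, 263, and 269 TPM at day 3 (-1.05 ± 0.19, adjusted p = 0.0273). Beside it, the mean log2 levels of 6 sebaceous markers were 4.86, 5.93, and 5.43 at day 1 against 4.30, 4.22, and 4.12 at day 3, and the part of sebaceous tissue in the fall of Fa2h was not tested. The 5 Schwann cell markers were at 3.50, 3.12, and 3.88 at day 1 and at 4.25, 4.41, and 4.18 at day 3, with no overlap.

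Of 14 macrophage genes 4 rose and 1 fell (median 0.48, and 0.11 on the sham side). At day 3 the denervated values lay wholly above sham in 0 of the 14, against 11.9% of all genes tested. Cd68, a lysosomal protein of macrophages, had 17.2, 25.4, and 20.4 TPM at day 1 and 90.1, 47.1, and 64.1 TPM at day 3 (1.62 ± 0.26, adjusted p = 0.0212), and Adgre1, which encodes F4/80, rose from 0.912, 0.836, and 1.03 TPM to 2.48, 3.77, and 3.66 TPM (1.40 ± 0.20, adjusted p = 0.0164). Lyz2, lysozyme, and Spp1, osteopontin, rose by 1.25 and 1.30. None of the 4 was called after muscle rescaling. On the sham side the values of Adgre1 were 0.64, 1.83, and 2.37 TPM at day 1 and 5.62, 2.97, and 2.13 TPM at day 3, and those of the sides overlapped at day 3. Arg1, arginase 1, fell from 31.7 ± 3.73 to 15.6 ± 1.87 TPM (mean ± SD, n = 3 a day), with no overlap (adjusted p = 0.0146, limma). No neutrophil, class II, or chemokine gene was called by limma among 6, 7, and 12 tested, where 1, 0, and 2 had an unadjusted p under 0.05. Their list medians were 0.84, -0.13, and 0.30. Of the 6 neutrophil genes 5 had a positive change (83.3%, against 53.3% of all genes tested), and 7 of 8 did on the sham side. The neutrophil gene S100a9 varied widely between mice, at 20.4, 653, and 216 TPM at day 1 and 196, 58.6, and 24.9 TPM at day 3. Interferon-stimulated genes had 3 rises among 12 and a median of 0.82 (0.53 on the sham side), led by Rsad2, the antiviral protein viperin, at 3.05, 1.56, and 0.784 TPM and 10.4, 9.95, and 8.08 TPM (2.23 ± 0.36, adjusted p = 0.0217). After muscle rescaling Rsad2 alone of these 3 was called (1.37). In 0 of the 12 interferon-stimulated genes did the denervated values of day 3 lie wholly above sham. In signaling of the interleukin-6 family, the shared receptor Il6st rose by 0.93 ± 0.13 and was -0.012 after muscle rescaling, while the inhibitor Cish fell by 0.60. Of 12 heat shock genes 3 rose, Hspb7, Cryab, and Hsph1, by 1.13, 1.13, and 0.98, and 0 of them were called higher after muscle rescaling. In 18 matrix genes Sparc alone was called, at 0.62 ± 0.12 and at -0.33 after muscle rescaling.

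Of 12 skin alarmin genes 2 fell, and the list median was -1.43, against 0.39 on the sham side. Sprr1b, a cornified envelope protein made by stressed keratinocytes, had 24.9, 98.8, and 55.6 TPM at day 1 and 12.2, 8.05, and 5.09 TPM at day 3 (-2.62 ± 0.53, adjusted p = 0.0342). Lce3c, a late cornified envelope gene induced by barrier damage, went from 28.7, 65.1, and 130.1 TPM to 9.85, 13, and 9.35 TPM (-2.50 ± 0.51, adjusted p = 0.0347). Tgm3, the transglutaminase that cross-links proteins of epidermis and hair, had 45.8, 54.4, and 104 TPM at day 1 and 9.86, 9.79, and 13.8 TPM at day 3 (-2.48 ± 0.32, adjusted p = 0.0139). The sham values of Sprr1b overlapped between days, at 6.67, 16.5, and 37.5 TPM and 8.08, 16.5, and 51.9 TPM. Beside these, the mean log2 levels of 8 epidermal markers were 9.67, 9.65, and 9.60 at day 1 against 9.22, 9.45, and 9.36 at day 3, and their part in the falls was not tested.

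Of 15 immediate early genes 4 fell and 0 rose (median -0.54, and -0.05 on the sham side). Egr1, an early growth response factor, had 38.5, 36.5, and 36.6 TPM at day 1 and 20.6, 24.8, and 24 TPM at day 3 (-0.68 ± 0.10, adjusted p = 0.0183). Ier3, Fosl2, and Egr3 fell by 0.83, 0.56, and 0.64, and Fos was at 9.69, 11.6, and 6.35 TPM and 7.72, 12.8, and 9.81 TPM, with overlap. Of 24 cell cycle genes 3 fell, where 3.18% of all genes tested did, and 0 rose, with a median of -0.56 (-0.09 on the sham side). A positive change was seen in 2 of the 24, against 53.3% of all genes tested. Day 3 values lay wholly below those of day 1 in 17 of the 24, against 15.3% of all genes. At day 3 the denervated values lay wholly below sham in 1 of the 24 and wholly above it in 1. Cdc20, an activator of the anaphase-promoting complex, had 20.9, 26, and 33.2 TPM at day 1 and 11.3, 11.9, and 13.6 TPM at day 3 (-1.07 ± 0.18, adjusted p = 0.0232). Mcm5, a replication helicase subunit, and Rrm2, of ribonucleotide reductase, fell by 0.53 and 0.59. In the circadian list Ciart, a repressor of the clock, was the only one of 14 called and fell by 1.25, against -0.92 on the sham side, where it was not called.

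Other genes among the 10 largest rises were A930003A15Rik, Prr32, Gm15310, and Gm26897. A930003A15Rik had 0.216, 3.27, and 0.844 TPM at day 1 and 23.1, 35, and 30.6 TPM at day 3 (4.27 ± 0.57, adjusted p = 0.0146). Prr32 rose from 0.773, 2.11, and 1.43 TPM to 14.1, 21.8, and 15.9 TPM (3.23 ± 0.29, adjusted p = 0.00742) and was called whichever mouse was left out. Gm15310 was listed at 0, 0, and 0.424 TPM at day 1 and at 25.2, 24.2, and 21.3 TPM at day 3, and Gm26897 was listed at 0 in all denervated samples of day 1 and at 26.5, 28, and 6.95 TPM at day 3. Gm26897 was also present in 1 of the 3 sham samples of day 1, with 0, 29, and 0 TPM. Among the 10 largest falls, Gm15971 and Gm49255 were listed at 0 in every sample of day 3, with 2.12, 3.35, and 2.71 TPM and 2.66, 1.76, and 1.93 TPM at day 1. These met the minimum level only through their day 1 values, so they could be ranked only as falls. Ocm, the calcium-binding protein oncomodulin, fell from 12.3, 9.05, and 9.12 TPM to 2.31, 0.618, and 2.65 TPM (-2.30 ± 0.40, adjusted p = 0.0256), and Ulk4, Gm12240, and Gm17538 fell by 2.34, 3.26, and 2.56. Gm15310, Gm15971, and Gm49255 are annotated as processed pseudogenes, so that their reads may be shared with near-identical parent copies and their values are uncertain.

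Whether the change between days differed between the sides was tested as an interaction of side and day over the 12 samples. Of 14721 genes 6 were called (0.0408%), all with a larger rise on the denervated side, and 1407 (9.56%) had an unadjusted p under 0.05. Stbd1, a glycogen-binding protein, had 9.12, 12.3, and 9.24 TPM at day 1 and 57.8, 67.8, and 58.6 TPM at day 3 on the denervated side, and 5.99, 7.65, and 10.7 TPM and 8.88, 11.4, and 9.66 TPM on the sham side (difference 2.23 ± 0.27, adjusted p = 0.021). Fam19a5, a secreted chemokine-like protein, had 4.27, 3.45, and 3.67 TPM and 16.4, 16.7, and 14.8 TPM on the denervated side, with sham values between 3.17 and 3.63 TPM at both days (difference 1.87 ± 0.15, adjusted p = 0.0022). Arhgdig had 1.73, 2.76, and 2.26 TPM and 20.0, 18, and 18.9 TPM (difference 2.86 ± 0.26, adjusted p = 0.00376). In these genes all denervated samples of day 3 were above all other samples. The genes were picked by the difference in these same samples, so that this is a description.

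Aldh3b1, an aldehyde dehydrogenase, had 3.28, 2.84, and 3.33 TPM at day 1 and 21.7, 21.4, and 29.1 TPM at day 3 (difference 2.28 ± 0.28, adjusted p = 0.021), and Plekhh1 had 2.16, 3.75, and 2.44 TPM and 21.1, 24.2, and 16.9 TPM (difference 2.35 ± 0.27, adjusted p = 0.021). Mef2a, described above, was the sixth (difference 1.58 ± 0.20, adjusted p = 0.021). With the mouse as a replicate block, which pairs the sides, 0 genes passed in limma and 2076 had an unadjusted p under 0.05, and the adjusted p of these 6 was between 0.0647 and 0.0854. Kcnn3 (2.50 ± 0.36, adjusted p = 0.0618), Runx1 (1.68 ± 0.26, adjusted p = 0.0807), and Atp13a3, a P-type ATPase (1.43 ± 0.21, adjusted p = 0.0618), missed the threshold. Slc25a25, a mitochondrial carrier for ATP and magnesium, was the only gene of the 10 with the smallest p that was lower, with 24.6, 28.5, and 31.1 TPM and 11.5, 12.6, and 11.5 TPM on the denervated side and 6.31, 7.66, and 9.01 TPM and 7.41, 9.02, and 8.63 TPM on the sham side (difference -1.33 ± 0.19, adjusted p = 0.0618). Its denervated values were above all sham values at both days and highest at day 1. The receptor and myogenic genes had large but more scattered differences, 2.57 ± 0.72, adjusted p = 0.311 for Chrna1 and 1.16 ± 0.63, adjusted p = 0.598 for Myog, and Chrng and Mymk could not be tested because their sham levels were under the minimum.

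**Figure D5:**
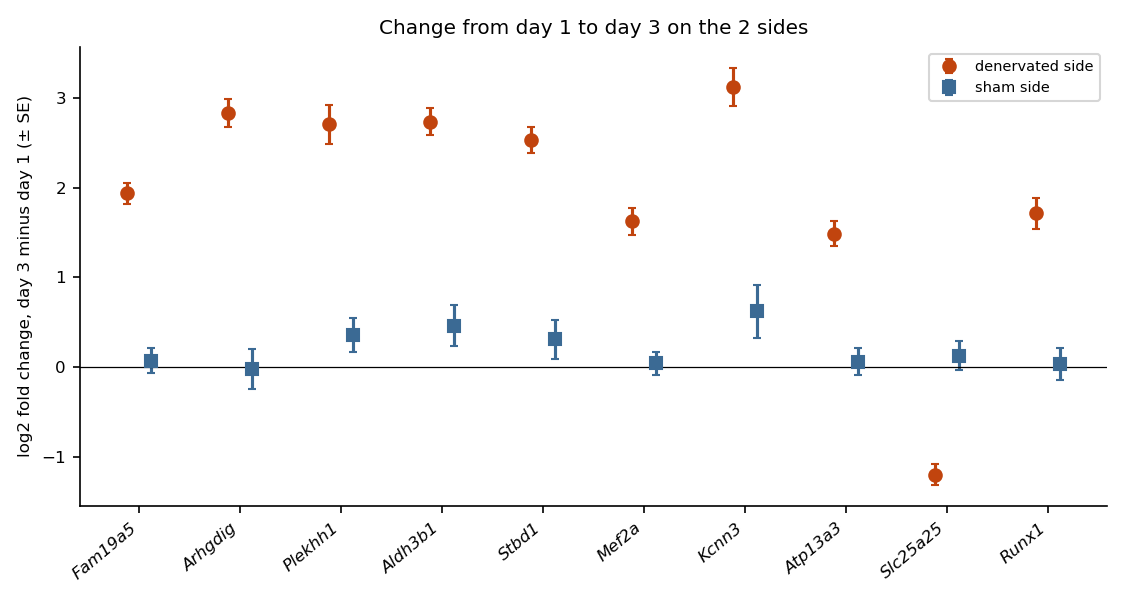
Change from day 1 to day 3 (log2 fold change ± SE, 3 samples against 3) on the denervated and the sham side for the 10 genes with the smallest p of the interaction of side and day. Denervated changes ran from -1.20 in Slc25a25 to 3.13 in Kcnn3, and sham changes lay between -0.02 and 0.62.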

How the data were processed

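RNA of 18 punches was sequenced from TruSeq libraries, which do not mark strand. Per the study's methods and the submitters' processing notes, the authors base-called with bcl2fastq 2.17.1.14, filtered duplicate reads (ParDRe), trimmed adapters (Fastp), and quantified GRCm38 cDNA with Kallisto 0.43.1 and Sleuth. The deposited signal values are TPM the authors normalized between samples, with sums of 867207 to 1079897 in the 6 denervated samples. They are not counts, so no count test was used, although plain TPM had been assumed when tests were chosen.

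Of 113194 transcripts 98.46% were matched to GENCODE M21 and summed to 35150 genes. Genes with at least 1 TPM in at least 47% of a comparison's samples were tested on log2(TPM + 0.5) with limma 3.58.1 (R 4.3.3, mean-variance trend, two-sided, Benjamini-Hochberg adjustment, threshold 0.05), after a test on simulated data. With 3 against 3, an exact permutation test cannot go below p = 0.1, so it was not used. Depth was estimated from steps in low values of long single-transcript genes and describes counting error only. Columns of 6 samples of day 7 could be mapped to their group only, and served in the fit of all 18 samples.

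The members and lists were chosen with earlier results of these data known. Named genes are those of the lists, the 10 largest rises and falls among called genes whose days do not overlap, and the 10 smallest p of the interaction, and some results under this rule are not reported here. Alternatives were pseudocounts of 0.1 and 1, other minimum levels, 3 rescalings, no trend, all 18 samples, the highest transcript of a gene, a replicate block, and each mouse left out. Deviations from group means correlated at 0.152 to 0.435 between the sides of a mouse, which pairs the sides of the interaction, and at -0.008 to 0.070 between same-numbered mice of the 2 days, which are different mice. Python 3.11.15, numpy 2.4.6, pandas 2.3.3, and matplotlib 3.10.9 were used for the rest.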

Additional observations from a re-analysis of the deposited data

Results flagged for a closer look

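In 6 genes the change from day 1 to day 3 differed between the denervated and the sham side by a test of the difference itself (limma, 12 samples, Benjamini-Hochberg adjustment). The difference of the log2 fold changes, denervated minus sham, was 2.86 for Arhgdig (adjusted p = 0.00376), 2.35 for Plekhh1 (0.021), 2.28 for Aldh3b1 (0.021), 2.23 for Stbd1 (0.021), 1.87 for Fam19a5 (0.0022), and 1.58 for Mef2a (0.021). All 3 denervated samples of day 3 were above all other samples in each of these genes. As the genes were picked by the difference in the same 12 samples, that separation is a description and no added evidence. With the mouse as a replicate block the adjusted p of the 6 lay between 0.0647 and 0.0854.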

How the results depend on the processing

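The 1404 genes called on the denervated side (933 higher, 471 lower) became 934 (404 higher) with samples scaled to an equal sum, 868 (609 and 259) with the highest transcript of a gene, 2290 (75 and 2215) with samples scaled to muscle markers, and 720 (513 and 207) with a replicate block of the mouse number, which pairs different mice. The other settings gave 989 to 1537. Leaving out 1 mouse gave 60 to 1455 genes, 50 to 909 higher and 9 to 546 lower. The 7 genes of the sham side became 12 with any TPM above 0 and 0 in limma with all 18 samples or with the replicate block (1982 and 1273 at an unadjusted p under 0.05), and 2 to 32 without 1 mouse: 32 without replicate 1 of day 1, 2 without replicate 2 or 3 of day 1, and 4 without replicate 2 of day 3. The 6 interaction genes became 11 with any TPM above 0, 18 with all 18 samples, 2 with at least 5 TPM, and 0 in limma with muscle scaling or the replicate block (212 and 2076 unadjusted). Without 1 mouse they were 0 to 41: 41 without mouse 1 of day 1, and 0 without mouse 3 of day 1, mouse 2 of day 3, or mouse 3 of day 3 (984, 906, and 1035 unadjusted). Apart from muscle scaling, whose construction lowers all genes in the samples of day 3, the cause was not tested.

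Of the 94 called genes named here, none changed direction under the other alternatives in which it was tested, and 8 reversed with muscle scaling: Mef2d (-0.56), Nedd4 (-0.38), Lamp1 (-0.45), Oaz2 (-0.55), Sparc (-0.33), Gfra1 (-0.064), Il6st (-0.012), and Casq2 (-0.00). Depth limits genes near or under the minimum level, such as Mymk, Musk, and, at day 1, Chrng.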

Other observations

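The naming rule does not cover the genes that follow, which were picked with their values in view. Scx, the tendon transcription factor scleraxis, had 8.65, 5.65, and 6.56 TPM in the denervated samples of day 1 and 31.7, 92.3, and 56.3 TPM in those of day 3 (2.91 ± 0.38, adjusted p = 0.0139, limma), while the sham values were 6.94, 5.06, and 4.72 TPM and 6.56, 7.37, and 7.61 TPM. Cdh15, the muscle cadherin of satellite cells and myoblasts, had 1.08, 1.6, and 1.45 TPM at day 1 and 8.85, 16.9, and 10.2 TPM at day 3 (2.69 ± 0.26, adjusted p = 0.00847) and was called whichever mouse was left out. Tcap, which caps titin at the Z-disc, fell from 506, 686, and 769 TPM to 129, 251, and 296 TPM (-1.60 ± 0.33, adjusted p = 0.0367), whereas the muscle fiber markers were higher at day 3.

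Adipoq, or adiponectin, a marker of adipocytes, had 4.35, 5.99, and 3.93 TPM at day 1 and 31.9, 20.5, and 36.9 TPM at day 3 on the denervated side (2.51 ± 0.25, adjusted p = 0.00882). On the sham side it had 1.96, 8.64, and 15.9 TPM and 64.7, 43.5, and 9.68 TPM, values that overlap and were not called (adjusted p = 0.478). The endothelial genes Kdr and Tie1 changed by 1.17 and 0.98 on the denervated side, where they were called, and by 1.12 and 1.01 on the sham side, where they were not. Sebaceous genes fell on the denervated side, where Pnpla5 had 61.6, 74.7, and 69.6 TPM at day 1 and 21.4, 22.5, and 20.6 TPM at day 3 (-1.65 ± 0.10, adjusted p = 0.00322), Awat1 fell by 2.25, and Elovl3 fell by 1.40. Pnpla5 was called whichever mouse was left out, and its sham change was -0.61.

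Fkbp5 and Zbtb16, which glucocorticoids are known to induce, fell on the denervated side by 1.60 and 1.35 and had sham changes of -1.46 and -0.96, which were not called. Fkbp5 had 24.2, 9.13, and 11.4 TPM on the denervated side and 40.3, 10.6, and 13.3 TPM on the sham side at day 3. On both sides replicate 1, the mouse that was also highest for Fbxo32, Trim63, and Ucp3 at that day, was the highest. Krtap3-1, a keratin-associated protein of hair, was called on the sham side with 198, 150.1, and 111 TPM at day 1 and 1259.6, 1487, and 1070.1 TPM at day 3 (3.08 ± 0.24, adjusted p = 0.0268), while the denervated values overlapped, at 1105, 195, and 142 TPM and 1042, 683, and 412 TPM.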
